A study of Mus with 12 samples.

Results

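Fn1, Tgfb1, Mmp13, Adamts1 and Timp3 are 5 genes of the extracellular matrix and its remodelling, taken by name from the 741 gene probes of a panel measured in kidney cells selected for the macrophage surface protein F4/80. All 5 were measured, and all 5 passed the filter on low counts, with raw counts of 64 or more in each of the 12 libraries. The libraries came from 6 mice, 3 labelled wild type (WT, Aif-1+/+; mice 12, 26 and 36) and 3 labelled knockout (KO, Aif-1-/-; mice 17, 23 and 32), where Aif1 encodes a calcium-binding protein of macrophages. Blood flow to the left kidney of each mouse had been stopped for 30 min. The injured left and the contralateral right kidney were collected on day 4, the latter as the animal's own control. This gave 4 groups of 3 libraries, WT injured, WT contralateral, KO injured and KO contralateral. The contralateral kidneys came from animals that had undergone the same operation, and the sources used here give neither strain, age and sex nor the design of the knockout allele. Expression was counted with NanoString probes, fluorescent barcodes read on single RNA molecules without amplification. Counts of different probes were not compared as measures of abundance, because each probe has its own capture efficiency.

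The extracellular matrix is the protein scaffold between cells, and after kidney injury it is both laid down and cut. Fibronectin, the product of Fn1, is an adhesive glycoprotein of the early wound matrix, made by macrophages, fibroblasts and epithelium. TGF-beta 1, the product of Tgfb1, is a cytokine secreted in latent form that drives matrix production when activated. MMP13 is a collagenase, ADAMTS1 is a secreted metalloprotease that cuts proteoglycans such as versican, and TIMP3 is a matrix-bound inhibitor of both protease families.

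The amount of RNA differed strongly between libraries. The geometric mean count of 13 genes taken as housekeeping genes was 180.1 in the lowest and 1470 in the highest library (8.16-fold), whereas that of the positive control probes differed 1.18-fold. Total counts lay between 255274 and 904220. The 3 libraries with the most RNA were both of WT mouse 12 and the injured one of KO mouse 17. Of 13 macrophage markers, 12 were on the panel and all 12 were above background in every library, the F4/80 gene Adgre1 among them at 230 to 1932. Of 13 kidney tubule markers, 5 were on the panel, and all 5 passed the filter. The Aif1 probe read 57 to 95 in WT and 54 to 93 in KO libraries against a mean negative control of 28.8 to 36.2, so it did not separate the genotypes and did not check their labels. KO and WT below therefore mean the libraries so labelled. In sorted bulk RNA, more cells of a type and more RNA per cell cannot be told apart.

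Every mouse had more Fn1 in its injured than in its contralateral kidney, 6 of 6. In WT mice 12, 26 and 36 the raw count went from 171 to 282, from 64 to 149 and from 105 to 161. In KO mice 17, 23 and 32 it went from 91 to 2402, from 105 to 524 and from 77 to 115. The lowest count, in the contralateral kidney of mouse 26, was close to the threshold of 53.1 used as background, and the injured library of mouse 17 stood far above the rest. Counts were then normalised by effective library size, the total of the tested genes times a TMM factor for composition. This size ran from 131464 to 542894, a narrower span than the 8.16-fold of the housekeeping count. By that count, the amount of RNA was thus corrected only in part. In mouse 17 the ratio of injured to contralateral Fn1 was 7.89 normalised and 5.69 with housekeeping scaling. Contralateral Fn1 was 91.5, 99.0 and 97.0 normalised counts in the 3 WT mice and injured Fn1 was 138, 180.5 and 195. In the 3 KO mice the contralateral values were 130.4, 137 and 118 and the injured values 1029, 441 and 203. In both genotypes all injured libraries lay above all contralateral ones, which held for 3.63% of the 689 tested genes in WT and for 13.1% in KO mice. The contralateral values were close together, and the injured KO values spread most widely.

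**Figure D1:**
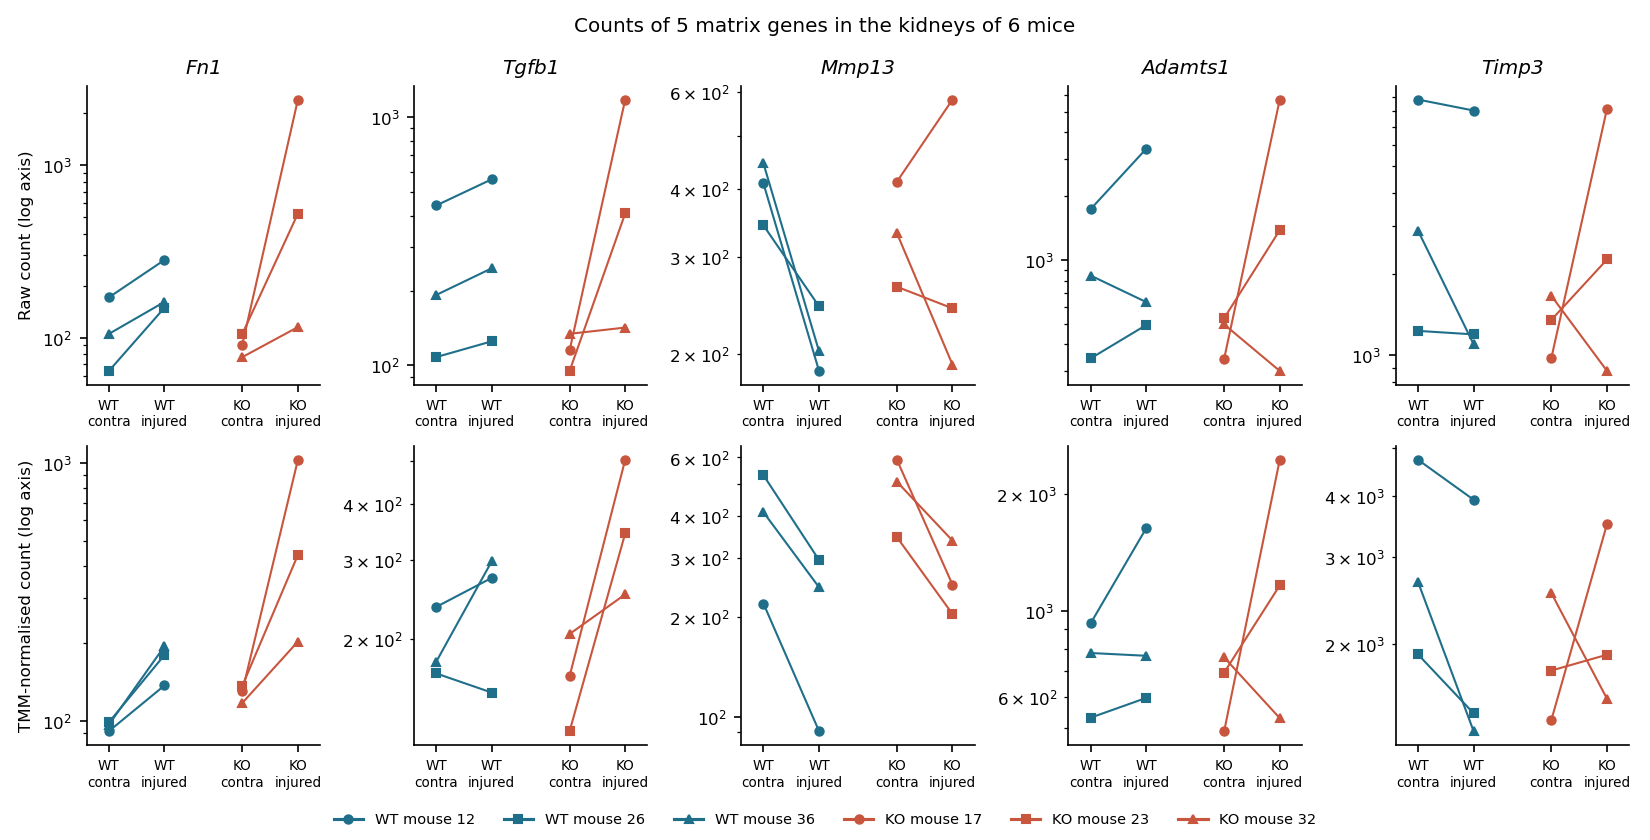
Raw counts (top) and TMM-normalised counts (bottom), both on log axes, of the 5 genes in the contralateral and injured kidneys of 3 WT and 3 KO mice. Each line joins both kidneys of a mouse. Fn1 lines all rise, Mmp13 lines all fall after normalisation but rise in mouse 17 in raw counts, and Adamts1 and Timp3 lines go both ways.

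Averaged over both genotypes, Fn1 rose 2.52-fold by the paired fit (1.33 ± 0.22 on the log2 scale, SE, n = 6 mice, edgeR's quasi-likelihood test, adjusted p = 0.0011), the 13th smallest p of 689. Genes called in this comparison made up 8.27% of those tested (57 of 689). Those called higher were 53, or 7.69%, and a normalised count higher in 6 of 6 mice was found for 9.0%. In KO mice alone the rise was 3.61-fold (1.85 ± 0.32, n = 3 mice, edgeR adjusted p = 0.0026, with 6.82% of genes called and 6.68% called higher). In WT mice the value was 0.81 ± 0.31 and did not pass (edgeR adjusted p = 0.36, with 0.726% of genes called). Both calls were made whichever mouse was left out, with a KO value of 1.27 without mouse 17. Under positive control scaling, which does not correct for the amount of RNA, the joint (edgeR adjusted p = 0.052) and the KO call (0.074) missed the threshold, and without the replicate block the KO call did (edgeR adjusted p = 0.057).

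The WT call of Fn1 changed with the libraries in the fit. Without KO mouse 17 or without KO mouse 32 the WT response passed (edgeR adjusted p = 0.024 and 0.0086, at 0.72 and 0.73), and so it did in a fit of the WT libraries alone (0.72, edgeR adjusted p = 0.00020). The difference between the responses, KO minus WT, was 1.04 with a 95% interval from 0.10 to 1.97, an unadjusted p of 0.032 and an edgeR adjusted p of 0.41. By edgeR no gene was called for that difference (0.00% of 689), 75 had an unadjusted p under 0.05, and DESeq2 called 0. Without mouse 32 the difference in Fn1 was 1.66 and passed, in a fit that called 323 of 689 genes, where the fits without another mouse called 0 or 1. Passes without mouse 32, here and for the other genes, are therefore doubtful, and whether that fit understates the spread was not tested. Without mouse 17 it was 0.55 and did not pass (edgeR adjusted p = 0.96).

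Macrophage markers moved with Fn1 as a sum. The sum is weighted towards C1qa, C1qb and C1qc, whose probes had the highest median raw counts among them (772.5, 1151 and 805.5). That order does not rank the genes by abundance. Over both genotypes Csf1r (0.47, edgeR adjusted p = 0.23), Cd14 (0.45, 0.26) and Mertk (0.08, 0.82) did not pass, and the other markers on the panel were called higher. The summed normalised count of the 12 markers went from 2718 to 3949 in mouse 12, from 5607 to 6600 in mouse 26 and from 4562 to 9227 in mouse 36. In the KO mice 17, 23 and 32 it went from 4664 to 12749, from 3237 to 9777 and from 4504 to 7295. In normalised counts the injured kidney held 1.5 to 7.89 times as much Fn1 as the contralateral one and 1.18 to 3.02 times the marker sum. Relative to the marker sum, Fn1 in the injured kidney was 2.89 times its contralateral level in mouse 17, 1.55 times in mouse 26 and between 0.99 and 1.07 times in mice 12, 23, 32 and 36. The part of the marker change in the Fn1 result was not tested. Defining genes of fibroblasts and mural cells, another source of fibronectin, were on the panel for 4 of 10 listed markers. Their summed normalised count in the injured kidney was 0.50 and 0.61 times the contralateral one in mice 17 and 23 and between 1.003 and 1.145 times in the other mice, with raw sums of 331 to 623.

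Tgfb1 rose in the injured kidney over both genotypes and in KO mice, and the responses of the genotypes were not shown to differ. Its raw count in WT mice 12, 26 and 36 was 440, 108 and 192 in the contralateral and 561, 125 and 246 in the injured kidney. In KO mice 17, 23 and 32 it was 115, 95 and 134 in the contralateral and 1174, 409 and 142 in the injured kidney. Every raw count was thus higher on the injured side, by 1.06-fold in mouse 32 and 10.2-fold in mouse 17. After normalisation the WT values were 235, 167 and 177 contralateral and 274, 151 and 298 injured, so the WT groups overlapped and mouse 26 went down. The KO values were 165, 124 and 205 contralateral and 503, 344 and 251 injured, without overlap and with injured higher, as for the 13.1% of genes given above. WT mouse 36 had a larger ratio of injured to contralateral kidney (1.68) than KO mouse 32 (1.23).

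The fit gave Tgfb1 a 1.64-fold rise over both genotypes (0.71 ± 0.19, n = 6 mice, edgeR adjusted p = 0.027) and a 2.20-fold rise in KO mice (1.14 ± 0.27, n = 3 mice, edgeR adjusted p = 0.015). The value in WT mice was 0.28 ± 0.26 (edgeR adjusted p = 0.93), and the difference KO minus WT was 0.86 with a 95% interval from 0.06 to 1.65 (edgeR adjusted p = 0.41). The joint call was lost without mouse 12, 23, 26 or 36 (edgeR adjusted p = 0.13, 0.29, 0.070 and 0.21), with DESeq2 size factors (0.054), housekeeping (0.080) or positive control scaling (0.32), without the replicate block (0.18) and without mice 12 and 17 (0.084), so that 3 of 8 other settings made it. The KO call was lost without mouse 23 (edgeR adjusted p = 0.28), with housekeeping (0.14) or positive control scaling (0.17), without the replicate block (0.15) and without mice 12 and 17 (0.086). Without mouse 32 the difference was 1.38 and passed (edgeR adjusted p = 0.00019), again with 323 genes called. The ratio of injured to contralateral Tgfb1 was 0.76 to 0.92 times that of the macrophage marker sum in 5 of 6 mice, mouse 26 among them, and 1.12 times in mouse 17. The part of the marker change in the Tgfb1 result was not tested.

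Mmp13 was the gene of the 5 that fell. Its raw count in WT mice 12, 26 and 36 was 409, 343 and 445 in the contralateral and 186, 244 and 202 in the injured kidney, without overlap. In KO mice 17, 23 and 32 it was 412, 265 and 332 in the contralateral and 582, 242 and 191 in the injured kidney. Mouse 17 was the exception with more raw Mmp13 on the injured side, and in mouse 23 the count was 0.91 times the contralateral one. After normalisation the values were 219, 531 and 411 contralateral and 90.7, 296 and 245 injured in WT mice. In KO mice they were 591, 346 and 507 contralateral and 249, 204 and 338 injured. The normalised WT groups overlapped and the KO groups did not, as for 5.22% of tested genes with lower injured values. Mmp13 was thus lower in the injured kidney of 6 of 6 mice, at 0.41 to 0.67 times the contralateral level, against 1.89% of tested genes that were lower in 6 of 6.

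Over both genotypes the fit gave Mmp13 0.53 times the contralateral level (-0.91 ± 0.17, SE, n = 6 mice, edgeR adjusted p = 0.0019), and 0.581% of tested genes were called lower. Mmp13 was also the 1 gene called lower in KO mice (0.145%). The values for WT (-0.95 ± 0.24, edgeR adjusted p = 0.090) and KO mice (-0.87 ± 0.24, edgeR adjusted p = 0.034) were close, and their difference was 0.08 with a 95% interval from -0.62 to 0.79. The joint call held in each of the 6 fits without a mouse (edgeR adjusted p at most 0.042), and missed the threshold without mice 12 and 17 together (-0.72, edgeR adjusted p = 0.061) and without the replicate block (0.24). The KO call held without mouse 32 but not without any other single mouse (edgeR adjusted p from 0.056 to 0.27). It was also lost without the replicate block (0.66), in the KO libraries alone (0.18), without the filter on low counts (0.055), with positive control scaling (0.88) and without mice 12 and 17 (0.67). The WT value passed without mouse 17 or 32 (edgeR adjusted p = 0.0012 and 3.1e-05), in the WT libraries alone (4.0e-06) and in DESeq2 (DESeq2 adjusted p = 0.0013).

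The Mmp13 count hardly followed the amount of RNA. Across the 12 libraries the slope of log2 raw count on log2 housekeeping count was 0.12 for Mmp13, against 0.84 for Fn1, 0.89 for Tgfb1, 1.13 for Adamts1 and 1.10 for Timp3, with a median of 0.48 over the 689 genes. Without mouse 12 the slope was 0.40 for Mmp13 and 1.84 for Fn1. Between the 3 RNA-richest and the 3 RNA-poorest libraries mean Mmp13 differed 1.24-fold and the housekeeping count 6.52-fold. Dividing such a count by a factor for RNA lowers it where RNA is plentiful, and the housekeeping ratio of injured to contralateral kidney was 4.64 in mouse 17, 2.01 in mouse 23, 1.34 in mouse 26 and 1.03 in mouse 12. In mice 32 and 36 the housekeeping ratio was 0.77 and 0.61, and the raw Mmp13 ratio was 0.58 and 0.45. The part of RNA amount in the Mmp13 result was not tested. Under positive control scaling the joint value was -0.57 and did not pass (edgeR adjusted p = 0.77), with a median of 0.27 over all genes, and the KO value was -0.22 with a median of 0.60. All Mmp13 counts lay 5.48 to 18.6 times above the mean negative control. Slopes under 0.25 were found for 226 of 689 genes.

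**Figure D2:**
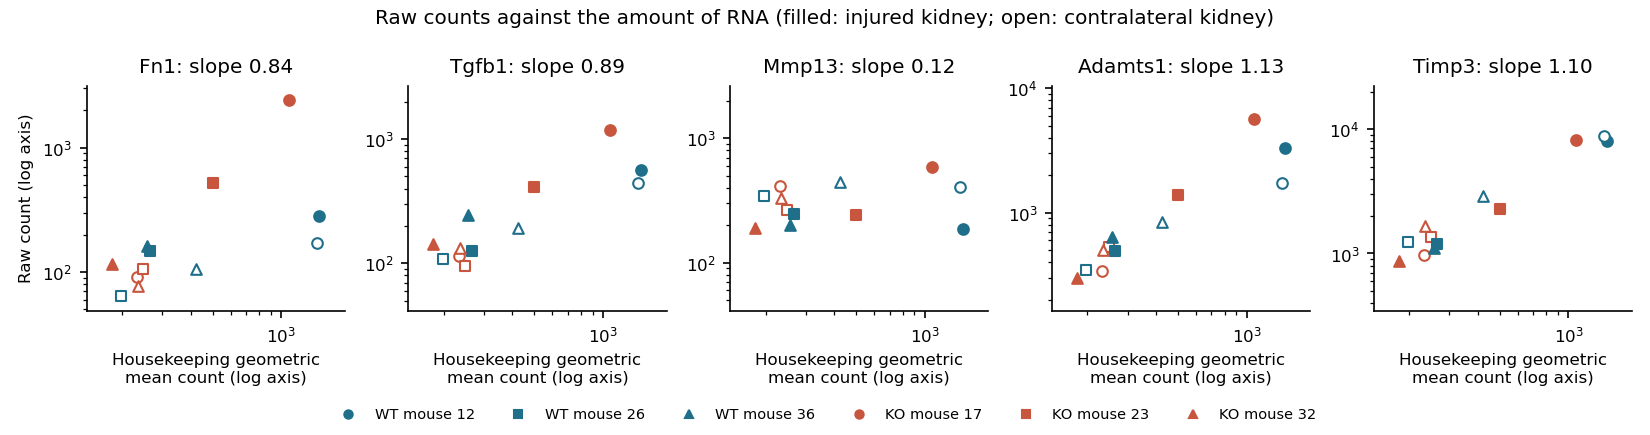
Raw count of each gene (log axis) against the geometric mean of 13 housekeeping genes (log axis) in the 12 libraries, with WT and KO mice in different colours and filled symbols for injured kidneys. The y axes span the same number of folds, and the slopes are those of log2 count on log2 housekeeping count. Adamts1 and Timp3 follow the amount of RNA closely (slopes of 1.13 and 1.10), and Mmp13 stays nearly level (0.12).

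Adamts1 did not move one way. Its raw count was 1738, 344 and 844 in the contralateral and 3345, 494 and 633 in the injured kidney of WT mice 12, 26 and 36. In KO mice 17, 23 and 32 it was 343, 532 and 497 in the contralateral and 5698, 1382 and 300 in the injured kidney. Normalised, the WT values were 930.2, 532 and 779.9 contralateral and 1631, 598 and 767 injured. The KO values were 492, 695 and 759.7 contralateral and 2441, 1163 and 531 injured. The groups overlapped in both genotypes, with Adamts1 higher on the injured side in mice 12, 17, 23 and 26 and lower in mice 32 and 36. The fitted response was 0.58 ± 0.31 over both genotypes with a 95% interval from -0.08 to 1.24 (edgeR adjusted p = 0.41), 0.32 ± 0.42 in WT and 0.84 ± 0.45 in KO mice. Single mice moved these values both ways. Without mouse 17 Adamts1 stood at 0.17 over both genotypes and 0.11 in KO mice, neither of which passed (edgeR adjusted p = 0.85 and 0.96). Without mouse 32 it stood at 0.91 over both genotypes (edgeR adjusted p = 0.00048, 224 genes called) and at 1.57 in KO mice (edgeR adjusted p = 6.3e-05, 370 genes called).

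Timp3 did not pass the test in any of the 6 comparisons. Its raw count was 8829, 1232 and 2893 in the contralateral and 8042, 1196 and 1100 in the injured kidney of WT mice 12, 26 and 36. In KO mice 17, 23 and 32 it was 981, 1354 and 1659 in the contralateral and 8174, 2263 and 876 in the injured kidney. The normalised count in WT mice was 4725, 1907 and 2673 contralateral and 3922, 1449 and 1333 injured, lower on the injured side in 3 of 3 mice. In KO mice it was 1406, 1769 and 2536 contralateral and 3502, 1904 and 1550.0 injured, higher in mice 17 and 23 and lower in mouse 32. The fitted values were -0.56 ± 0.45 in WT, 0.23 ± 0.46 in KO mice and -0.16 over both genotypes, the last with a 95% interval from -0.84 to 0.52 (edgeR adjusted p = 0.82). The difference KO minus WT was 0.79 with a 95% interval from -0.57 to 2.15 (edgeR adjusted p = 0.47), and it was 1.39 in the doubtful fit without mouse 32 (edgeR adjusted p = 0.032).

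Timp3 correlated strongly with the summed markers of several cell types across libraries. The sum of the 5 tubule markers is weighted towards the Klk1 and Egf probes, which had the highest median raw counts. The log2 normalised count of Timp3 correlated with the log2 of that sum at r = 0.91 over the 12 libraries and at 0.79 without mouse 12. Over the 12 libraries the same r was 0.50 for Adamts1, 0.12 for Tgfb1, -0.18 for Fn1 and -0.34 for Mmp13. Without mouse 12 these values were 0.42, 0.02, 0.09 and 0.345, so those of Fn1 and Mmp13 changed sign. Timp3 had values over the 12 libraries nearly as far from 0 as 0.91, with the opposite sign, for 3 other marker sets. These were the summed markers of fibroblasts and mural cells (-0.87), neutrophils (-0.86) and the 1 B cell marker (-0.87), whose counts are low. The tubule markers did not move together with injury, since Egf (-1.80, edgeR adjusted p = 0.032) and Fbp1 (-0.85, 0.040) fell and Havcr1, a marker of injured tubules, rose (1.01, 0.0024). The tubule sum ran from 4436 to 70471 normalised counts, highest in the contralateral library of mouse 12, which also had the highest Timp3. In WT mice 12, 26 and 36 the tubule sum of the injured kidney was 0.69, 0.58 and 0.16 times the contralateral one, and Timp3 was 0.83, 0.76 and 0.50 times. In KO mice 17, 23 and 32 the tubule sum was 1.5, 0.91 and 0.39 times, and Timp3 was 2.49, 1.08 and 0.61 times. The part of tubule RNA in the Timp3 values was not tested. With 4 summed endothelial and platelet markers the highest r of the 5 genes was that of Adamts1 (0.82), ahead of Tgfb1 (0.78) and Timp3 (0.67). These libraries share differences in RNA amount, so the correlations are descriptions.

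KO and WT mice were then compared within each side, to ask whether the genotype label alone went with a difference. By edgeR no gene was called in injured or in contralateral kidneys (0.00% of 689 in each). In injured kidneys 5 genes had an unadjusted p under 0.05 and DESeq2 called 3. In contralateral kidneys 3 genes had such a p and DESeq2 called 0. In injured kidneys Fn1 had the smallest unadjusted p of the 689 genes (0.0021), with KO 3.28-fold higher (1.72 ± 0.44, 95% interval from 0.75 to 2.68, n = 3 mice each, edgeR adjusted p = 0.9997). DESeq2 called it (1.70, DESeq2 adjusted p = 0.042), and the value was 0.92 without mouse 17 and 1.03 in limma-voom with the mouse as a random replicate block. Injured Fn1 was 558 ± 425 normalised counts in KO and 171 ± 29.9 in WT mice (SD, n = 3 each). The 3 KO values lay above the 3 WT values, as did those of 2.76% of the tested genes.

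In contralateral kidneys Fn1 was 128 ± 9.89 normalised counts in KO and 95.9 ± 3.90 in WT mice (SD, n = 3 each). The 3 KO values again lay above the 3 WT values, as for 8.27% of the tested genes. The fitted value of 0.42 did not pass (95% interval from -0.54 to 1.39, edgeR adjusted p = 0.72), and it turned to -0.31 under positive control scaling. In order of their means, the 4 groups ran from WT contralateral over KO contralateral and WT injured to KO injured. The gap between KO contralateral (128) and WT injured (171) was larger than either SD, and that between WT injured and KO injured was smaller than the SD of the latter.

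For the other genes the genotypes overlapped on both sides. Injured Tgfb1 was 366 ± 127 normalised counts in KO and 241 ± 78.6 in WT mice, and contralateral Tgfb1 165 ± 40.4 and 193 ± 36.9 (SD, n = 3 each). The KO minus WT value of Tgfb1 was 0.61 in injured (95% interval from -0.12 to 1.34) and -0.24 in contralateral kidneys (-0.98 to 0.50). Injured Mmp13 was 264 ± 68.3 in KO and 210.4 ± 107 in WT mice, and contralateral Mmp13 was 481 ± 124 and 387 ± 157, so the order of the 4 groups was set by the side of the kidney and neighbours in that order differed by less than the larger of their SDs. Adamts1 (0.46 injured, -0.21 contralateral) and Timp3 (0.05 and -0.70) had wide intervals around these values, such as -0.70 to 1.63 for injured Adamts1 and -1.94 to 0.53 for contralateral Timp3, with edgeR adjusted p of at least 0.72. The largest group mean of Adamts1 was that of injured KO kidneys (1378 ± 973), and that of Timp3 was that of contralateral WT kidneys (3102 ± 1457). The smallest were contralateral KO kidneys for both genes (649 ± 140 and 1904 ± 577), and neighbouring groups differed by less than the larger of their SDs.

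**Figure D3:**
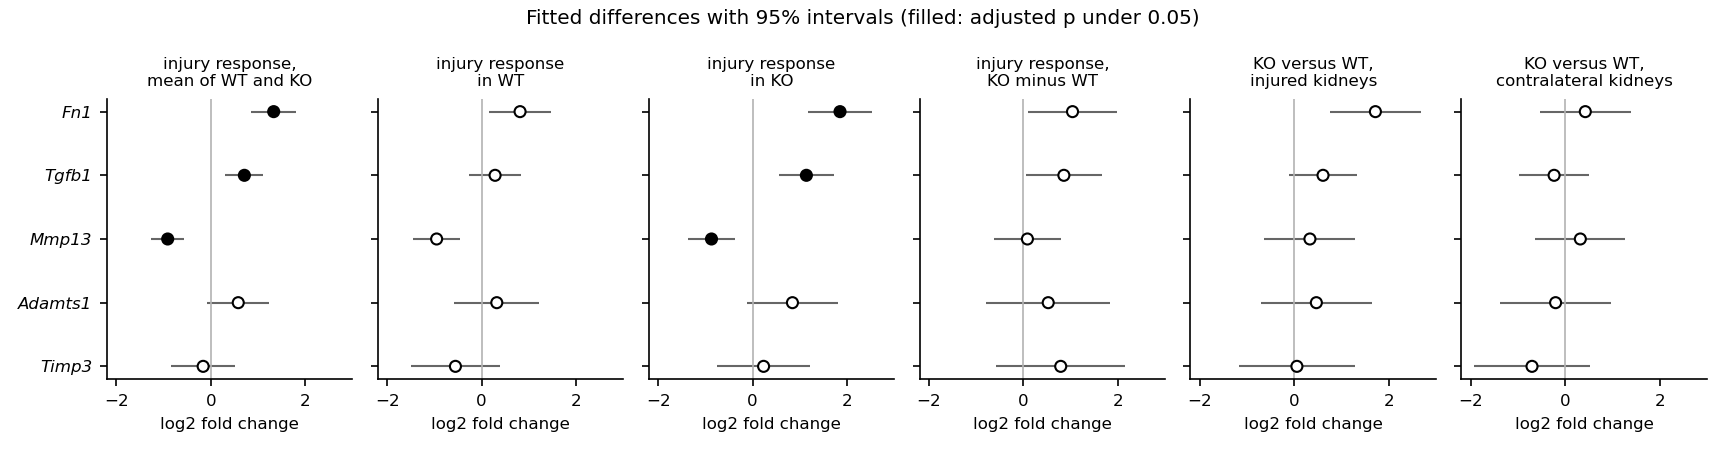
Fitted log2 fold changes of the 5 genes in 6 comparisons, with 95% intervals and filled symbols where the edgeR adjusted p is under 0.05. Fn1 and Tgfb1 lie above 0 and Mmp13 below it in the injury responses over both genotypes (1.33, 0.71 and -0.91) and in KO mice (1.85, 1.14 and -0.87). No symbol is filled in WT mice or in a comparison of KO with WT.

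Among themselves the 5 genes varied unequally. Over the 12 libraries the log2 normalised counts of Fn1 and Tgfb1 correlated at r = 0.77, those of Tgfb1 and Adamts1 at 0.78, and those of Adamts1 and Timp3 at 0.69, while Fn1 and Timp3 stood at 0.01. Mmp13 correlated below 0 with each of the other 4 (-0.29 with Fn1, -0.53 with Tgfb1, -0.69 with Adamts1 and -0.48 with Timp3). With the group means removed, Adamts1 and Timp3 stood at 0.87, Tgfb1 and Adamts1 at 0.73 and Mmp13 and Timp3 at -0.79. Fn1 and Tgfb1 then stood at 0.49, and Fn1 and Mmp13 at -0.004. With the group means kept but without mouse 12, the value of Mmp13 with Timp3 was -0.02 and that of Mmp13 with Fn1 was -0.74.

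The genes of the panel with the most similar pattern differed for each of the 5. By Pearson's r over the 12 libraries, Fn1 was closest to Sirpa, an inhibitory receptor of myeloid cells that binds CD47 (0.92), the arginase gene Arg1 (0.91) and the chemokine gene Ccl9 (0.91). Tgfb1 was closest to Il4ra, a subunit of the interleukin-4 receptor (0.90), the small GTPase gene Rhog (0.90) and the chemokine gene Cxcl1 (0.88). Mmp13 was closest to the MHC class II chain gene H2-Aa (0.81), its invariant chain gene Cd74 (0.80) and the procollagen-processing protease gene Adamts2 (0.79). Without mouse 12 these values were 0.77, 0.66 and 0.65. The raw count of Adamts2 ran from 41 to 79, on both sides of the background threshold. Adamts1 was closest to Tnfrsf12a, the receptor of TWEAK (0.98), the GTPase gene Gem (0.94) and the proto-oncogene Myc (0.94). Timp3 was closest to Smad7, an inhibitor of TGF-beta signalling (0.98), the growth factor gene Pdgfa (0.98) and the Golgi glycoprotein gene Glg1 (0.97). The median r with all other genes was between -0.45 for Timp3 and 0.21 for Mmp13.

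Most other genes of the matrix and its turnover did not pass the test. The 5 lists used held 51 genes of the panel, of which 47 were tested, 42 of them besides the 5 genes above. Of these 42, 3 rose with injury over both genotypes, none fell and 39 did not pass, with a median of -0.08 against -0.06 for all tested genes. That count is near the background of 7.69% of all genes called higher, and says nothing particular to these lists. In KO mice 3 of the 42 rose and none fell, near the shares of 6.68% called higher and 0.145% called lower among all tested genes. In WT mice no gene of the 42 was called, where 0.726% of all tested genes were.

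By role, Fn1 was the one called of 12 matrix protein genes, where 8.27% of all tested genes were called. The crosslinking enzyme gene Tgm2 stood at 0.22 ± 0.17, and the collagen genes Col1a2, Col3a1, Col4a1 and Col4a2, given as the collagens of the list, at -0.09, -0.19, 0.14 and 0.08. Tgfb1 was the one called of 8 genes of TGF-beta ligands and signalling, beside the same share. A single call in lists of these sizes is near that share and says nothing particular to them. The co-receptor gene Tgfbr3 stood at -0.27 ± 0.15, the signal transducer genes Smad1 and Smad2 at 0.11 and 0.03, and the inhibitory Smad7 at -0.03, none of which passed.

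Of 13 metalloprotease genes, Adam8, a membrane protease of leukocytes, rose by 0.73 ± 0.21 (edgeR adjusted p = 0.040), Mmp13 fell and 11 did not pass. Called higher were 7.69% of all tested genes, and called lower 0.581%. Adamts2 stood at -0.45 ± 0.23 and was lower in 6 of 6 mice without passing (edgeR adjusted p = 0.39). Of all tested genes, 1.89% were lower in 6 of 6 mice. The raw count of Adamts2 ran from 41 to 79, on both sides of the background threshold, and its slope on RNA amount was 0.131. The part of counts near background in the Adamts2 value was not tested. Of these 13 genes 10 had slopes on RNA amount under 0.25, Mmp13 among them, against 32.8% of all tested genes. In the other lists such slopes were found for 0 of the 8 TGF-beta genes, 3 of the 12 matrix protein genes and 4 of the 10 matrix receptor genes. Among the 4 genes of protease inhibitors and the plasminogen system there was 1. The other 11 metalloproteases had a median of -0.56 in KO mice, against -0.04 for all tested genes, and of -0.71 for KO minus WT, against -0.02. Of these 11 none was called lower. Mmp8, Mmp9 and Mmp19, named as metalloproteases of low count, ran from 51 to 123 raw counts in all libraries. Lower still were Adam19 (31 to 74) and Adamts4 (33 to 72), and the raw count of Adam8 ran from 34 to 423. The part of counts near background in the medians of the 11 genes was not tested. No gene was called among 4 of protease inhibitors and the plasminogen system, Timp3 included, where Plaur, the urokinase receptor gene, stood at 0.33 ± 0.19 (edgeR adjusted p = 0.45).

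Of 10 matrix receptor genes, the mannose receptor gene Mrc1, whose protein takes up collagen fragments, rose by 1.26 ± 0.19 and the scavenger receptor gene Stab1 by 1.23 ± 0.21, each in 6 of 6 mice (edgeR adjusted p = 0.00053 and 0.0014). Among all 689 tested genes, 7.69% were called higher and 9.0% were higher in 6 of 6 mice. Mrc1 is also 1 of the 12 macrophage markers. The integrin genes Itga5 and Itgb1, which together encode the classical fibronectin receptor, stood at 0.15 ± 0.19 and 0.02 ± 0.28, and Itga4, whose protein also binds fibronectin, at -0.19 ± 0.19. None of these 3 passed.

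**Figure D4:**
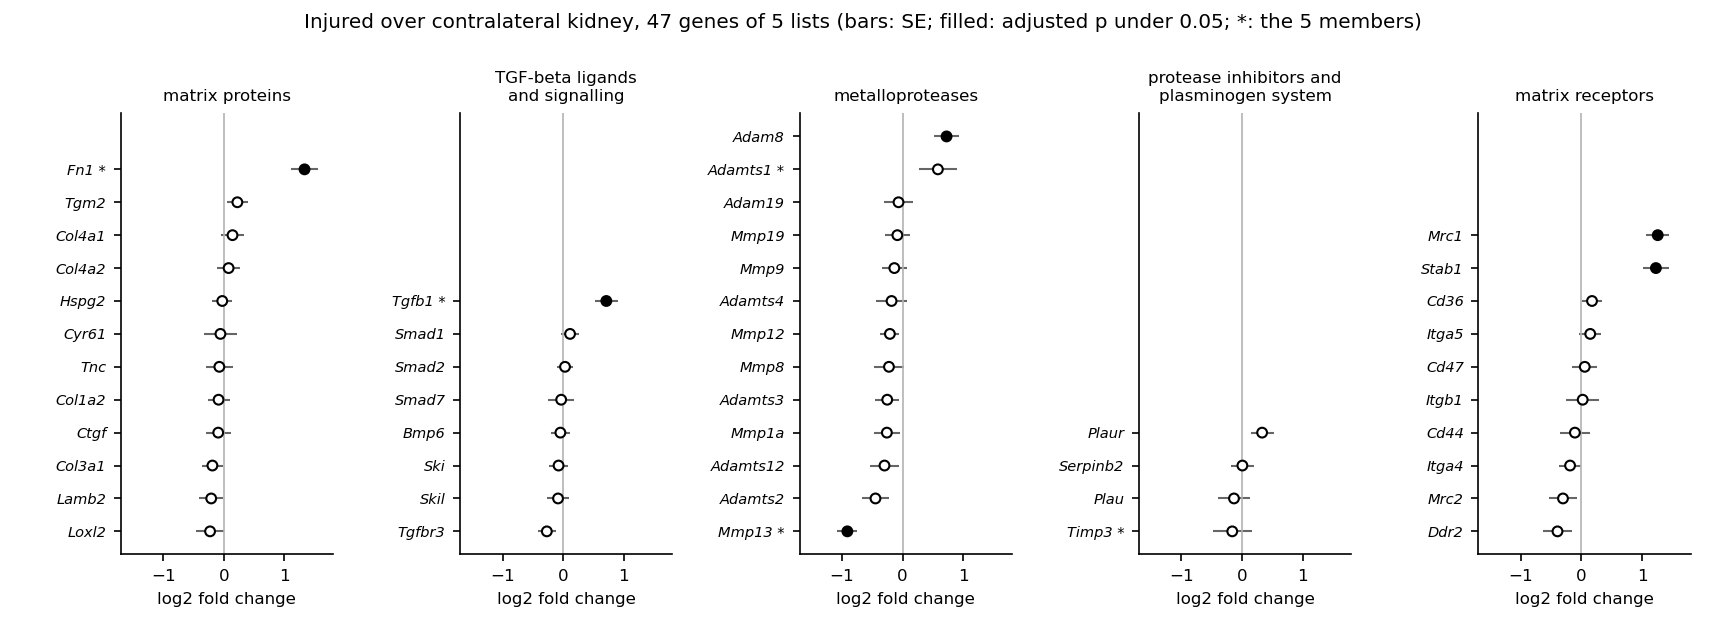
Fitted log2 fold change of injured over contralateral kidney, averaged over both genotypes, for the 47 tested genes of 5 lists by role, with bars for the SE, filled symbols for an edgeR adjusted p under 0.05 and an asterisk for the 5 genes described here. Fn1, Tgfb1, Adam8, Mrc1 and Stab1 have filled symbols above 0 and Mmp13 below it, and no other symbol is filled.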

How the data were processed

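The authors deposited raw counts, seen from the values to be whole and not normalised. The 12 libraries have 768 probes each, of which 741 are for genes, 13 for housekeeping genes, 6 are positive and 8 negative controls. The file does not mark the housekeeping probes. The 13 names were picked here from known reference genes so that their summary matched earlier results of these data, and RNA amounts, slopes and housekeeping scaling rest on that choice. Per the labels' protocols, cells were selected with a biotin-labelled F4/80 antibody and counted by the NanoString manufacturer's protocol. The sources used here give no panel, cartridge or counting software. The 5 genes, the gene lists, the markers and the housekeeping genes were chosen with earlier results of these data known. The rule for other named genes was, per list, the genes called in the joint injury response or the 2 with the smallest p, and the 3 genes most correlated with each of the 5. Names beyond it are the collagens, Smads, integrins, low-count proteases and single cell type markers, chosen after their values were seen. A further gene of the lists is not reported here, and the counts leave it out.

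Genes with 53.1 or more raw counts (mean plus 2 SD of the negative controls) in at least 3 libraries were kept, 689 of 741. edgeR 4.0.16 in R 4.3.3 (quasi-likelihood test, TMM factors, geometric mean effective size 232617) was fitted over all 12 libraries. Injury responses had the mouse as a fixed block, and KO against WT used 4 group means. P-values were adjusted by Benjamini-Hochberg over 689 genes, with calls under 0.05. SEs were obtained by dividing a log2 fold change by the root of its F statistic. Correlations used log2(normalised count + 0.5). The fit was tried on simulated counts with the same spread for all genes and a mouse effect shared by both kidneys. These settings differ from the present libraries, so the simulation checked the working of the fit and not its error rates here. DESeq2 1.42.0 and limma 3.58.1 served alternatives. The pairing rests on the shared animal. Deviations from the group means correlated between the kidneys of a mouse at 0.96, 0.88 and 0.72 in WT mice 12, 26 and 36, and at -0.12, 0.37 and -0.49 in KO mice 17, 23 and 32. Deviations in a group of 3 sum to 0, so these values are not independent within a genotype. Mouse 12 stood apart on both sides, with chi-square per degree of freedom of 112.5 to 207.4 against mice 26 and 36. Between mice 26 and 36 it was 5.92 and 15.85, so 0.88 and 0.72 do not show agreement particular to these mice. No replicates agreed within sampling noise (chi-square per degree of freedom at least 5.92). No batch is given in the labels.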

Additional observations from a re-analysis of the deposited data

How the results depend on the processing

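The 30 values of the 5 genes in 6 comparisons were recomputed without each of the 6 mice in turn, which gave 180 values. Other settings gave 260 values. Of these, 150 of the former and 223 of the latter kept direction and side of the threshold. Values from the same refit are not independent of each other. Sign changes outside the mouse-wise fits concerned values that had not passed. With positive control scaling contralateral KO minus WT became -0.31 for Fn1 and -0.23 for Mmp13, and the joint response of Timp3 0.16. With housekeeping scaling contralateral KO minus WT became 0.15 for Tgfb1 and 0.21 for Adamts1, and KO minus WT of the Mmp13 response -0.26. Timp3 in injured kidneys, KO minus WT, became -0.15 with DESeq2 size factors or DESeq2 and -0.064 without the filter. Without mice 12 and 17, a setting chosen after seeing the data, Mmp13 turned to -0.031 in injured and -0.19 in contralateral kidneys (KO minus WT), contralateral Adamts1 to 0.090 and the KO response of Timp3 to -0.27. Leaving out 1 mouse, the ranges that crossed 0 were, for Timp3, -0.48 to 0.061 (joint response), -0.31 to 0.76 (KO) and -0.47 to 0.69 (injured, KO minus WT), for Mmp13, -0.068 to 0.36 (response, KO minus WT), -0.083 to 0.62 (injured) and -0.0086 to 0.46 (contralateral), and for Adamts1, -0.12 to 1.33 (response, KO minus WT) and -0.31 to 0.96 (injured).

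Of all 689 genes, the paired fit called 57 jointly, 5 in WT and 47 in KO mice. Without the replicate block it called 14, 0 and 3. With housekeeping scaling it called 0 in WT and 24 in KO, with positive controls 2 in WT and 1 for the difference of responses, with DESeq2 12 in WT, 99 in KO and 3 for injured KO against WT, with only the libraries compared 55 in WT and 27 in KO, and without mice 12 and 17 25 in KO. Leaving out 1 mouse gave 28 to 224 jointly, 0 to 48 in WT, 14 to 370 in KO and 0 to 323 for the difference, the highest each without mouse 32, a fit whose calls are doubtful. Positive control scaling moved the median of all genes from -0.04 to 0.60 in KO mice. With a random mouse block KO against WT again called 0 on either side. The cause of these shifts was not tested. With 3 mice a group, the number of animals limits precision.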
